A study of Bombyx mori with 2 samples.

Results

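Attacins, gloverins and moricins are antimicrobial peptides that insects release into the hemolymph against bacteria, and 6 silkworm genes for them were described in the heads of the wildtype C603 and of the *nm2* mutant. They were moricin-2 (*BGIBMGA011495*), attacin (*BGIBMGA002747*), attacin-like (*BGIBMGA002739*), gloverin 1 (*BGIBMGA013863*), gloverin 3 (*BGIBMGA013803*) and gloverin 4 (*BGIBMGA013864*), 6 of the 12376 genes of *Bombyx mori* in the expression table. The 6 were selected on their BLAST names and on their FPKM in these same libraries, where they were low in the *nm2* mutant, so every level and difference of theirs is a description and none is a test. All 6 were lower in the *nm2* library, at 9.76 FPKM in sum against 386.93 FPKM in the wildtype, but the gloverin models outside the 6 were not as low.

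The wildtype library was made from heads of C603 larvae that develop normally, and the *nm2* library from heads of mutant larvae that cannot molt out of the 2nd instar and later die. The mutant arose in the variety C603 and has lost a stretch of the coding region of *BmCPG10*, which encodes a protein of the cuticle. Both groups were taken in the pre-molting stage of the 2nd instar and were fed mulberry leaves. Each library was 1 pool of 6 heads, and there was 1 library per strain. No spread between larvae or pools could be measured, and each difference below is one between 2 libraries, with no replicate check. The sex, age in days and microbial state of the larvae were not given in the sources used here, and differences of that kind between the pools cannot be told apart from the strain.

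In insects these peptides are made mainly by the fat body, and also by hemocytes and by epithelia such as the epidermis and the gut. Bacterial peptidoglycan and fungal glucan are bound by recognition proteins, which lead to the Toll and Imd pathways. Both pathways end in NF-κB factors (Dorsal, Dif and Relish in *Drosophila*) that enter the nucleus and switch on the peptide genes. Attacins and gloverins are glycine-rich proteins that act mainly on Gram-negative bacteria by disturbing the outer membrane, gloverins are known only from moths and butterflies, and moricins are short helical peptides first purified from silkworm hemolymph.

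The expression unit was FPKM, in which fragments are scaled to gene length and library size, so levels of different genes are given per length. The 12912619 clean reads of the wildtype and 12900347 of the *nm2* mutant were close in number, and 55.48% and 60.12% of them mapped to genes. Differences are given as log2((*nm2* + 1)/(wildtype + 1)), and a gene was counted as lower or higher when it had at least 5 FPKM in a library and differed by at least 2-fold on this scale, which understates the change of low genes. Across the 9158 genes with at least 5 FPKM in a library the median of this log2 value was -0.30, so the median gene lay slightly lower in the *nm2* library. The FPKM sum over all genes was 1.03 times as high in the *nm2* library as in the wildtype. *RPL3*, *GAPDH* and *BmActin3*, used as housekeeping genes, had *nm2* to wildtype ratios of 0.897, 0.849 and 1.17. *BmCPG10* itself had 117.24 FPKM in the wildtype against 277.94 FPKM in the *nm2* mutant, which does not check the label, since the deletion takes only a piece of the gene. Reads behind a gene could be recovered for 5 of the 6 genes, which have a coding length in the deposited tables.

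Moricin-2, the short helical peptide, was the most abundant of the 6 in the wildtype. It had 134.73 FPKM in the wildtype, the 990th highest of all genes there, and was listed at 0 in the *nm2* mutant. Its coding length is 162 bases, and its level rested on 64 recovered reads in the wildtype and none in the *nm2* mutant. Against a floor of 3 reads in the *nm2* library, 5.86 FPKM for a gene this short, moricin-2 was at least 23.0-fold lower, and the 95% interval from counting error, the method used for the genes with *nm2* reads, reached down to 18.2-fold. Of the 625 genes that were listed above 0 in the wildtype and at 0 in the *nm2* mutant, moricin-2 had the 5th highest wildtype level.

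Both attacin genes encode proteins of the glycine-rich attacin family and have the same coding length of 645 bases, so their levels rest on the same scale. Attacin had 75.49 FPKM in the wildtype and was listed at 0 in the *nm2* mutant, from 173 recovered reads and none. Attacin was therefore at least 62.2-fold lower against the floor of 3 reads, which for this length is 1.21 FPKM, and its 95% interval reached down to 50.1-fold. Attacin-like had 112.24 FPKM in the wildtype against 7.28 FPKM in the *nm2* mutant, from 257 and 18 reads. That is 15.4-fold lower, with a 95% interval of 9.55 to 26.4 from counting error only.

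The 2 attacins thus kept different remainders in the mutant library. In the wildtype attacin-like was 1.49 times as high as attacin, and their intervals from counting error, 98.8 to 127 FPKM for attacin-like and 64.6 to 87.6 FPKM for attacin, did not overlap. In the *nm2* mutant the floor for attacin was 1.61% of its wildtype level, while attacin-like kept 6.49% of its own, with an interval of 3.79% to 10.5%. RSEM divides reads that match several genes between them, so the split between these similar genes is uncertain, and their sum is less so. Summed, the attacins had 187.73 FPKM in the wildtype against 7.28 FPKM in the *nm2* mutant, 25.8-fold lower, with an interval of 16.1 to 43.9. In the RefSeq annotation of the assembly ASM3026992v2, the genes matched to attacin (*Attacin1*) and attacin-like (*LOC101743224*) are next to each other among protein-coding genes.

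**Figure D1:**
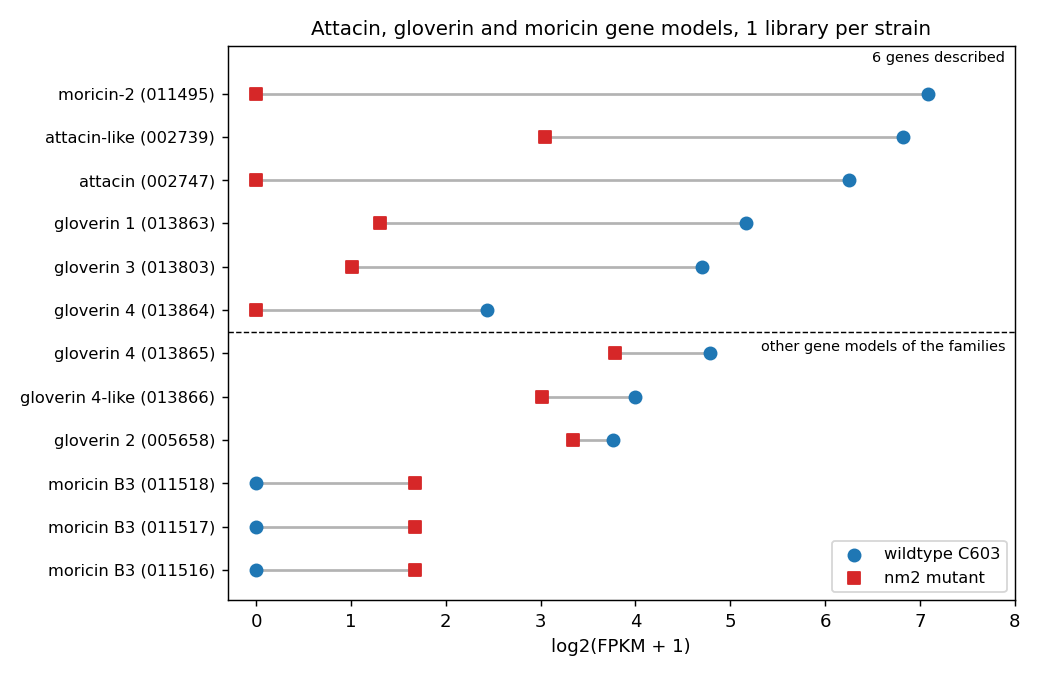
Level of each attacin, gloverin and moricin gene model as log2(FPKM + 1) in the wildtype (blue circles) and the *nm2* mutant (red squares), 1 library each, with a grey line between the values of a gene and the last digits of its identifier in brackets. The 6 genes above the dashed line are lower in the *nm2* mutant, where moricin-2, attacin and the first gloverin 4 model are listed at 0, while gloverin 2 and the other gloverin 4 models below the line lie closer together and the moricin B3 models were listed above 0 only in the *nm2* mutant, at 2.19 FPKM, under the minimum of 5 FPKM.

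The gloverins were less abundant than the attacins and moricin-2 in the wildtype. Gloverin 1 had 34.94 FPKM in the wildtype against 1.47 FPKM in the *nm2* mutant, from 66 and 3 reads. It was 23.8-fold lower, and the interval of 7.78 to 118 is wide because of the 3 reads in the mutant. Gloverin 3 had 25.11 FPKM in the wildtype against 1.01 FPKM in the *nm2* mutant, from 46 and 2 reads. It was 24.9-fold lower, with an interval of 6.49 to 211. The wildtype levels of these genes were close, with overlapping intervals of 27.1 to 44.5 FPKM for gloverin 1 and 18.4 to 33.5 FPKM for gloverin 3, and so were the shares they kept, 4.21% and 4.02%. Gloverin 4 had 4.42 FPKM in the wildtype and was listed at 0 in the *nm2* mutant. It did not reach 5 FPKM in a library and no length is listed for it, so its reads could not be recovered and no fold is given.

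In the wildtype the order of the levels ran from moricin-2 through attacin-like, attacin, gloverin 1 and gloverin 3 to gloverin 4. Moricin-2, with an interval of 104 to 172 FPKM, could not be separated from attacin-like by counting error, nor gloverin 1 from gloverin 3, whereas the intervals of attacin-like and attacin, and of attacin and gloverin 1, did not overlap. In the *nm2* mutant only attacin-like kept a level above 5 FPKM. Its interval there, up to 11.5 FPKM, included the floor of moricin-2, which is high because that gene is short.

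**Figure D2:**
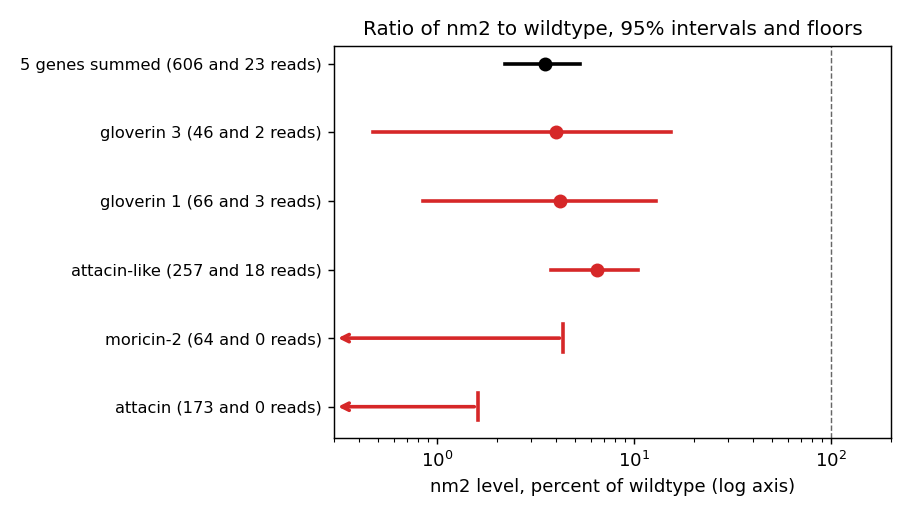
Level in the *nm2* mutant as a percentage of the wildtype on a log axis for the 5 genes with recovered reads and for their sum, with 95% intervals from counting error only. Arrows start at the floor of 3 reads for attacin (1.61%) and moricin-2 (4.35%), which had no reads in the *nm2* mutant. All intervals end well below the dashed line at 100%, but the genes were selected for low *nm2* levels, so this is no test.

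All 5 genes that reached 5 FPKM in a library were lower by at least 2-fold in the *nm2* mutant, where 15.0% of the 9158 genes were lower by this rule and 8.83% were higher. The genes were selected for this direction, so nothing can be read from that count. The log2 differences of the 5 ran from -7.08 for moricin-2 to -3.70 for gloverin 3, with a median of -3.86, and that of gloverin 4 was -2.44. Relative to the shift of all genes, with the *nm2* values rescaled to a median log2 ratio of 0, the median of the 5 was -3.69. The same rescaling took the genes lower by 2-fold from 1371 to 929 and the genes higher by 2-fold from 809 to 1151, so the share of lower genes among these went from 62.9% to 44.7%. Summed over the 5 genes, 606 reads in the wildtype stood against 23 in the *nm2* mutant, 28.4-fold lower, with an interval of 18.8 to 45.2.

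**Figure D3:**
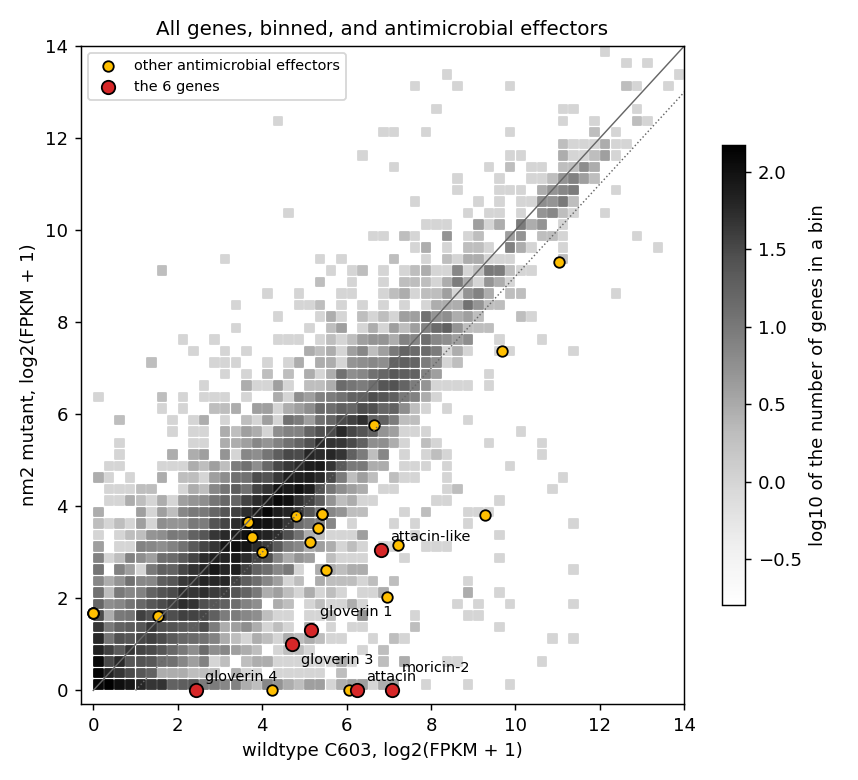
Levels of all genes in the wildtype (horizontal) and the *nm2* mutant (vertical), both as log2(FPKM + 1), with genes counted in squares (grey, log10 of the number of genes), the 6 genes in red and the other antimicrobial effectors in yellow. The solid line marks equal levels and the dotted line a level lower by 2-fold, and the 6 genes lie below the dotted line with most of the yellow points.

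Not every gene of these families was as low in the *nm2* mutant, and these gene models were left out of the selection. Gloverin 2 (*BGIBMGA005658*) had 12.55 FPKM in the wildtype against 9.12 FPKM in the *nm2* mutant, 1.38-fold lower. A second gene model whose best BLAST match is the same gloverin 4 protein (*BGIBMGA013865*) had 26.66 FPKM and 12.80 FPKM, 2.08-fold lower. Gloverin 4-like (*BGIBMGA013866*) had 14.90 FPKM and 7.05 FPKM, 2.11-fold lower. These gloverins kept 47.3% to 72.7% of their wildtype level, against 4.02% to 4.21% for gloverin 1 and gloverin 3.

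Among the 2 models named gloverin 4, the match of *BGIBMGA013865* had an E-value of 5.55e-98 and that of the low *BGIBMGA013864* one of 1.30e-57, so the model with the weaker match is the one listed at 0. Gloverin 1 and the models of gloverin 4 and gloverin 4-like carry consecutive numbers in the gene set. In the RefSeq annotation the genes matched to gloverin 1 (*glv1*) and gloverin 4-like (*glv4-like*) are not next to each other, and the gloverin 4 models had no match. Summed, the 3 models named gloverin 4 or gloverin 4-like had 45.98 FPKM in the wildtype against 19.85 FPKM in the *nm2* mutant, 2.32-fold lower. All 6 gloverin models together had 118.58 FPKM and 31.45 FPKM, 3.77-fold lower. In the wildtype gloverin 1 and gloverin 3 made up 60.05 FPKM of the gloverin sum, and in the *nm2* mutant 2.48 FPKM, so most gloverin transcript that was left in the mutant head was gloverin 2 and gloverin 4.

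The other moricins were near the limit of detection. The 3 gene models named moricin B3 (*BGIBMGA011516*, *BGIBMGA011517* and *BGIBMGA011518*) were listed at 0 in the wildtype and at 2.19 FPKM each in the *nm2* mutant. The values of the 3 models were equal and under the minimum of 5 FPKM, so no direction is given for them. All moricin models together had 134.73 FPKM in the wildtype against 6.57 FPKM in the *nm2* mutant, 20.5-fold lower. With attacin and moricin-2 set to their floors of 3 reads in the *nm2* mutant, the moricin sum was 10.8-fold lower and the attacin sum 22.1-fold lower.

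The other antimicrobial effectors, from cecropins to lysozymes, were lower too. Of 21 such gene models, which include the gloverins and moricins above, 17 reached 5 FPKM in a library. Of these, 13 (76.5%) were lower by at least 2-fold and none was higher, against 15.0% and 8.83% of all genes. Their median log2 difference was -1.80, against -0.30 over all genes. All 10 models of cecropins and of the related enbocins, helical peptides that break bacterial membranes, were lower, and their sum went from 1176.35 FPKM to 74.57 FPKM. The cecropin-B models *BGIBMGA000036* and *BGIBMGA000038* had equal values, 41.63 FPKM and 13.18 FPKM each, so these counts may hold the same signal more than once. A cecropin-B model (*BGIBMGA000021*) had 620.47 FPKM in the wildtype against 13.11 FPKM in the *nm2* mutant, 47.3-fold lower. Another cecropin-B model (*BGIBMGA000023*) had 123.87 FPKM and 3.07 FPKM. One more (*BGIBMGA000037*) had 146.97 FPKM and 7.96 FPKM. A cecropin-B (*BGIBMGA000024*) with 66.03 FPKM and an enbocin (*BGIBMGA000018*) with 17.86 FPKM in the wildtype were listed at 0 in the *nm2* mutant, like attacin and moricin-2. A further enbocin (*BGIBMGA000039*) had 44.77 FPKM and 5.13 FPKM.

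Lysozyme cuts the peptidoglycan of bacterial walls, and models named lysozyme or lysozyme-like were by summed level the largest group of these effectors. Most of their sum was that of a lysozyme-like model (*BGIBMGA007458*), with 2092.35 FPKM and 628.99 FPKM. Lysozyme itself (*BGIBMGA010439*) had 817.52 FPKM and 164.13 FPKM. Whether the lysozyme-like proteins cut peptidoglycan was not examined. The 4 lysozyme models went from 3011.32 FPKM in sum to 848.71 FPKM, and 2 of the 3 that reached 5 FPKM were lower by at least 2-fold. Lebocin-3, a proline-rich peptide, had 11.58 FPKM and 11.72 FPKM. It was the only effector above the 5 FPKM minimum whose *nm2* level was not below its wildtype level. By the 2-fold rule 4 of the 17 effectors were neither lower nor higher, lebocin-3 among them.

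Genes for immune recognition did not go one way. Of 34 gene models, 29 reached 5 FPKM. Of these, 7 (24.1%) were lower by at least 2-fold and 5 (17.2%) were higher, against 15.0% and 8.83% of all genes. The median log2 difference was -0.26, against -0.30 over all genes. C-type lectin 4 (*BGIBMGA005948*), a sugar-binding protein, had 487.99 FPKM in the wildtype against 3.13 FPKM in the *nm2* mutant, a pattern like that of the antimicrobial genes. C-type lectin 16 (*BGIBMGA007553*) had 369.42 FPKM and 19.49 FPKM. Of the 10 peptidoglycan recognition proteins, a family that binds bacterial walls and only in part leads to Toll and Imd, 2 were lower by 2-fold. A model named peptidoglycan-recognition protein 2-like (*BGIBMGA000583*), for example, had 347.34 FPKM and 66.10 FPKM. Of the 4 glucan-binding models, beta-1,3-glucan-binding protein (*BGIBMGA011608*) had 53.19 FPKM and 146.17 FPKM. The scavenger receptors of class B, which in insects take up lipids and carotenoids as well, had 3 models lower and 3 higher, the furthest being *BGIBMGA013436* with 1.18 FPKM and 11.49 FPKM.

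Of 36 gene models of the Toll and Imd pathways, 29 reached 5 FPKM, and most transcripts for their intracellular parts differed little between the libraries. Of the 29, 5 (17.2%) were lower by at least 2-fold and 1 (3.45%) was higher, against 15.0% and 8.83% of all genes. Their median log2 difference was -0.27. The largest difference was that of a spatzle-like protein (*BGIBMGA008841*), named after the Toll ligand, with 77.95 FPKM in the wildtype against 1.98 FPKM in the *nm2* mutant. A model named mitogen-activated protein kinase kinase kinase 7-like (*BGIBMGA008981*), after the kinase TAK1 of the Imd pathway, had 94.65 FPKM and 29.46 FPKM. Another model of that name (*BGIBMGA008980*) had 12.98 FPKM and 13.20 FPKM. A model named tak1 (*BGIBMGA010752*) had 27.64 FPKM and 13.78 FPKM, a log2 difference of -0.95 that was not counted as lower. A TNF receptor-associated factor 4-like model (*BGIBMGA006661*) had 5.14 FPKM and 0.95 FPKM.

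The factors at the end of the pathways were present in both strains. The 1 model that was higher (*BGIBMGA002463*) was named NF-κB p110 subunit, a name also used for Relish in *Drosophila*, with 2.06 FPKM and 11.45 FPKM, and the 3 other models of that subunit differed by less than 2-fold, such as *BGIBMGA014594* with 40.08 FPKM and 38.30 FPKM. Dorsal had 41.05 FPKM and 36.52 FPKM in 1 model (*BGIBMGA010496*). Cactus, the inhibitor that holds Dorsal in the cytoplasm, had 155.94 FPKM and 124.79 FPKM. Transcript levels say nothing of the activity of these proteins.

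**Figure D4:**
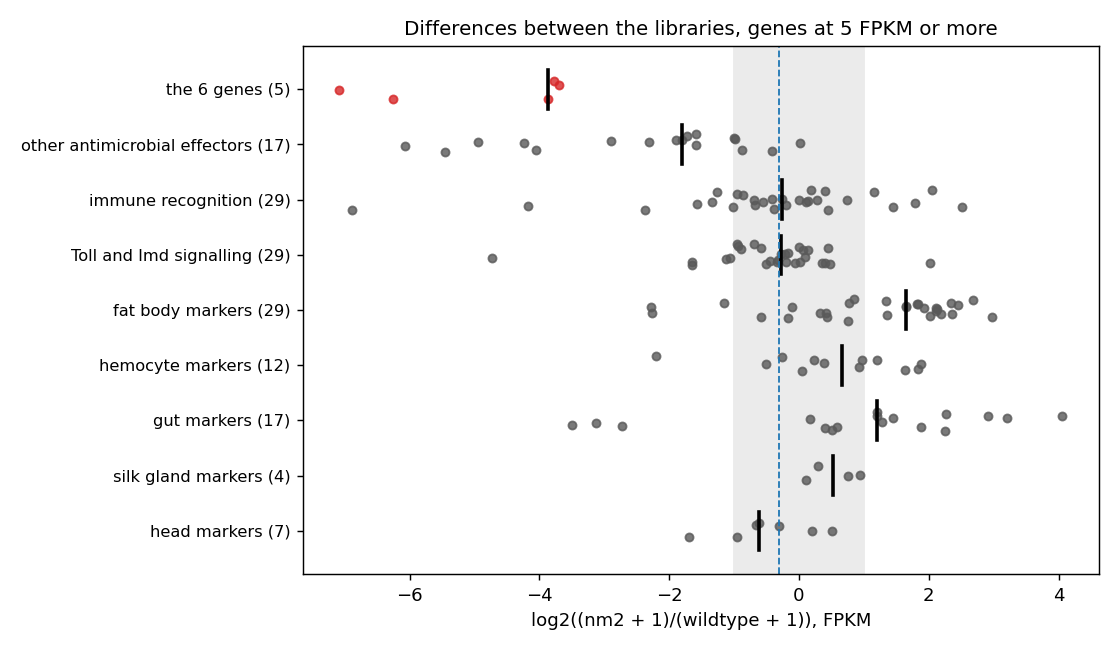
Difference between the libraries as log2((nm2 + 1)/(wildtype + 1)) of FPKM for each gene at 5 FPKM or more in a library (points, spread vertically for sight) in the 6 genes and 8 lists, with the number of genes in brackets, list medians as black bars, the median of all genes as a blue dashed line (-0.30) and differences under 2-fold shaded. The 6 genes and the other antimicrobial effectors lie to the left, recognition and signalling genes lie around the median of all genes, and the medians of fat body (1.65) and gut markers (1.21) lie to the right.

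Most fat body, hemocyte and gut markers that reached 5 FPKM were not lower by 2-fold along with the 6 genes, and no epidermal markers were examined. Over all genes that reached 5 FPKM, 15.0% were lower by at least 2-fold and 8.83% were higher. Of 44 fat body markers, 29 reached 5 FPKM, 17 were higher by at least 2-fold in the *nm2* mutant and 3 were lower, and their sum went from 15879 FPKM to 37304 FPKM, with 7 models at 0 in the wildtype and 4 at 0 in the *nm2* mutant. A 30 kDa lipoprotein (*BGIBMGA004398*) had 5.69 FPKM and 51.42 FPKM. Another 30 kDa lipoprotein (*BGIBMGA004405*), listed at 0 in the wildtype, had 5.40 FPKM in the *nm2* mutant, and a microvitellogenin-like model (*BGIBMGA004474*) of the same protein family had 380.80 FPKM and 2082.32 FPKM. A transferrin-like model (*BGIBMGA003841*), named after the iron carrier of hemolymph, had 4.89 FPKM and 29.03 FPKM. Models named 30K, 30 kDa, storage protein, vitellogenin or microvitellogenin were 38 of the 44 and 15 of the 17 that were higher. Of these, 30K protein 8 (*BGIBMGA004464*) alone had 4855.29 FPKM and 15274 FPKM. Of the 6 models without these names, 2 transferrins were higher, and arylphorin subunit beta-like (*BGIBMGA008860*) was lower with 9 FPKM and 1.06 FPKM. Arylphorin is a storage protein too, so this split by name does not separate storage proteins from the rest. The 3 apolipophorin models, lipid carriers of hemolymph, differed by less than 2-fold, such as apolipophorin III (*BGIBMGA013108*) with 1180.16 FPKM and 1050.52 FPKM. The sum of the 6 models without these names was 2023.81 FPKM and 2118.20 FPKM.

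Of 15 hemocyte markers, 12 reached 5 FPKM, 4 were higher and 1 was lower by at least 2-fold, and the sum went from 331.06 FPKM to 507.36 FPKM with none at 0 in a library. The proenzymes of melanin formation, made by oenocytoids, were among those higher, with prophenoloxidase-1 (*BGIBMGA012764*) at 1.49 FPKM and 8.20 FPKM and phenoloxidase subunit 1 (*BGIBMGA012763*) at 3.34 FPKM and 14.42 FPKM. An integrin beta-8-like model (*BGIBMGA006803*) had 6.25 FPKM and 21.55 FPKM. An integrin beta-3-like model (*BGIBMGA006151*) had 14.66 FPKM and 2.41 FPKM. The hemocytin models, defining for hemocytes, had 7.65 FPKM and 9.14 FPKM (*BGIBMGA006692*) and 14.21 FPKM and 14.78 FPKM (*BGIBMGA006694*).

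Of 20 gut markers, 17 reached 5 FPKM, 10 were higher and 3 were lower, and their sum went from 2169.69 FPKM to 4077.28 FPKM, with 1 at 0 in the *nm2* mutant. An aminopeptidase N (*BGIBMGA008060*), a digestive enzyme of the gut lining, had 41.93 FPKM and 713.83 FPKM, and aminopeptidase N-7 (*BGIBMGA008017*) had 21.06 FPKM and 202.51 FPKM. The models lower in the *nm2* mutant included an aminopeptidase N-12 (*BGIBMGA010764*) with 249.54 FPKM and 27.61 FPKM and a peritrophin-1-like gene (*BGIBMGA007900*) with 70.00 FPKM and 5.32 FPKM. In a pool of whole heads, fewer cells of a type and less RNA per cell cannot be told apart. The part of these differing tissue levels in the levels of the 6 genes was not tested.

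The markers used could not settle the label of head, since there was no library of another tissue to set beside them. Of 25 head markers, 7 reached 5 FPKM, and 1 of them, the elav-like RNA-binding protein of neurons (*BGIBMGA005888*), was lower by at least 2-fold with 17.74 FPKM and 4.78 FPKM. Synaptotagmin I (*BGIBMGA010356*), a calcium sensor of synaptic vesicles, had 5.47 FPKM and 2.34 FPKM. Synaptobrevin-like (*BGIBMGA000943*), of neurotransmitter vesicles, had 204.42 FPKM and 128.75 FPKM, whereas the 6 opsins, light receptors of the eye, stayed under 5 FPKM with sums of 7.40 FPKM and 8.49 FPKM. Of 5 silk gland models 4 reached 5 FPKM and none differed by 2-fold. Sericin 2 (*BGIBMGA011901*) had 562.06 FPKM and 1081.32 FPKM. These silk transcripts were abundant, with 2284.33 FPKM and 3859.81 FPKM for fibroin heavy chain (*BGIBMGA005111*) in these libraries labelled head.

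Gene models numbered next to the 6 genes were mostly not lower with them. Within 5 places on either side there were 43 other models, of which 26 reached 5 FPKM, 5 were lower by at least 2-fold, the second gloverin 4 model among them, and 4 were higher. Their median log2 difference was -0.26, against -0.30 over all genes, of which 15.0% were lower and 8.83% were higher. An endonuclease-reverse transcriptase model (*BGIBMGA002746*), numbered just before attacin, had 7.84 FPKM in the wildtype against 17.87 FPKM in the *nm2* mutant, and an uncharacterized gene (*BGIBMGA011496*), numbered just after moricin-2, had 6.70 FPKM and 10.88 FPKM. A UDP-glycosyltransferase (*BGIBMGA013862*), numbered just before gloverin 1, had 2.07 FPKM and 9.86 FPKM. Other neighbours were lower in the *nm2* mutant, such as an early growth response protein 3-like gene (*BGIBMGA011497*), numbered 2 after moricin-2, with 7.49 FPKM and 0.70 FPKM. An uncharacterized gene (*BGIBMGA013802*), numbered just before gloverin 3, had 4.86 FPKM and 0.90 FPKM, under the minimum of 5 FPKM and so not counted.

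The genes outside the 6 whose pair of levels came nearest to their median, 55.2 FPKM in the wildtype against 0.505 FPKM in the *nm2* mutant, were not antimicrobial by name. Likeness was the distance in log2(FPKM + 1) over the 2 libraries, which gives no more than a like pair of levels. The nearest were the nuclear receptor GRF (*BGIBMGA007888*), with 55.26 FPKM and 0.47 FPKM at a distance of 0.11, a 37-kDa protease (*BGIBMGA006272*), with 47.51 FPKM and 0.47 FPKM, and a golgin-like protein (*BGIBMGA002044*), with 53.11 FPKM and 0.27 FPKM. A hypothetical protein (*BGIBMGA010949*) had 58.05 FPKM and 0.36 FPKM, and a zonadhesin-like protein (*BGIBMGA001452*) had 42.29 FPKM and 0.32 FPKM, at a distance of 0.29. The 6 genes themselves lay 0.74 to 3.31 from that median, farther than these 5.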

How the data were processed

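Total RNA from pooled heads was enriched for poly(A) and sequenced as single-end reads of 49 bases. The authors removed adapter reads, mapped what remained onto the gene set of the silkworm with Bowtie2, estimated abundance with RSEM and deposited FPKM per gene. The read total of each library is a count that the authors deposited, and the mapping rates are percentages that the authors computed from it. The deposited tables of differentially expressed genes gave coding lengths (all 1727 are multiples of 3). Their ratios, P-values and FDR, and 4 columns that repeat FPKM, were not used, nor were the GO, KEGG and quality tables.

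The 6 genes and the gene lists were chosen with earlier results of these data known. Lists were matched to BLAST names, and false matches (such as thioesterases, or trafficking proteins matched by TRAF) were removed by name after the matches had been seen. Of the other genes, the text names up to 6 effectors and up to 4 genes of each other list with the largest absolute log2 difference, the housekeeping genes, *BmCPG10* and the 5 genes nearest to the median of the 6. Relish, Dorsal, cactus, lebocin-3, hemocytin, apolipophorin III, arylphorin and 30K protein 8 were named after their values were seen. The same holds for the other gloverins and moricins, the glucan-binding protein and the numbered neighbours. It also holds for the lysozyme models, the cecropin-B models with equal values and the further models named after TAK1.

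A pseudocount of 1 FPKM and a minimum of 5 FPKM in a library were used. With 1 library per strain no test was made. Reads were recovered as FPKM times the coding length less 36 bases times the library total that made most low values whole, 3764000 in the wildtype library and 4061000 in the *nm2* library. At these, 89.9% of 307 and 95.3% of 448 values fell within 0.1 of a whole number. The totals are 52.5% and 52.4% of the mapped reads and serve only as a scale for counting error. Ratios have 95% exact conditional binomial intervals, levels have exact Poisson intervals, and for genes at 0 the floor was 3 reads in that library. These cover counting error only, and PCR copies are not independent molecules. The search and the intervals were tested on simulated data. RefSeq (assembly ASM3026992v2) gave symbols and gene order, and 5 of the 6 genes matched. The build used by the authors is another one, so no coordinates are given. Sequences of the genes were not used here. The alternatives were other scalings (TPM, median, housekeeping genes), pseudocounts, minimums and lengths, and sums over families, added after seeing the data. The tools were matplotlib 3.10.9, SciPy 1.17.1, pandas 2.3.3, NumPy 2.4.6 and Python 3.11.15.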

Additional observations from a re-analysis of the deposited data

How the results depend on the processing

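The 6 genes were lower by at least 2-fold under all 5 alternatives of scaling and pseudocount, and 30 of 30 such values were negative. The genes were selected for low *nm2* levels in these same libraries, so these counts give no support for the direction. The median log2 difference of the 5 genes that reached 5 FPKM, -3.86 as reported, was -4.51 with a pseudocount of 0.1 FPKM and -4.62 with 0.01 FPKM. The log2 value of a gene at 0 is set by the pseudocount, so the values of moricin-2, attacin and gloverin 4 moved with it and are no measure of their fold. With FPKM summed over all models of each family, chosen after seeing the data, the median over the families was -4.16, but that of gloverin alone was -1.88. Rescaled to a median log2 ratio of 0, 3 Toll and Imd genes were lower by at least 2-fold in place of 5. The counts over all genes stayed within their wide tolerance there, although lower genes went from 1371 to 929 and higher genes from 809 to 1151. With a minimum of 20 FPKM, 816 genes of all were lower and 502 higher, since fewer genes entered. No other result moved by more than its tolerance, including the summed read ratio without the 36 bases taken off, 29.0-fold.

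No paired analysis was possible because each strain has 1 library. The depth, with 2 or 3 *nm2* reads for gloverin 3 and gloverin 1 and none for moricin-2 and attacin, limits how low these genes can be shown to be, and no value covers the spread between larvae or pools.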
